A study of Sus scrofa with 12 samples.

Results

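The comparison described here set 3 libraries of NANOG tdTomato knock-in pig iPS cells against 3 libraries of the wild-type (WT) PC-iPS cells they were made from, 6 of the 12 RNA-seq libraries in the series. Both groups were named by their labels alone, with no measured value used. PC-iPS cells are pig iPS cells reprogrammed from pericytes, the contractile cells that wrap small blood vessels, and both groups grew on feeder cells in LCDMV, a medium with LIF, the GSK3 inhibitor CHIR99021, dimethindene maleate, minocycline and vitamin C. Before RNA extraction, dissociated cells were plated briefly and only the cells that stayed in suspension were taken, which leaves most feeders behind. The knock-in lines 1, 2 and 3 carry a cassette with FLAG tags, a P2A peptide and tdTomato joined to the end of the NANOG coding sequence, followed by a puromycin resistance gene with a PGK promoter of its own. They were electroporated with Cas9, guide and donor plasmids, selected with puromycin and blasticidin and sorted for tdTomato, whereas the WT cells carry no cassette and were not described as selected or sorted. Each line is a mixed culture, in which single cells can carry the cassette on 1 or more NANOG alleles of chromosome 1, of chromosome 5, of both or of neither. Nothing in the labels says whether WT libraries 1, 2 and 3 came from separate cultures, so the p-values below measure the spread between libraries, which may in part be technical. Cassette, selection and sorting always went together and cannot be told apart.

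Nanog is a homeodomain transcription factor that holds pluripotent cells back from differentiation, in a circuit with OCT4 and SOX2. Pluripotent cultures vary in NANOG level from cell to cell, and cells low in NANOG are the more prone to enter lineages such as neural ectoderm or primitive endoderm. Reporter alleles of this kind are used to follow NANOG in living cells and to sort the cells that express it.

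A single designed guide was used for both NANOG loci. RefSeq places a NANOG gene at chr1:169064134-169065292 and another at chr5:62931642-62939086 of Sscrofa11.1, the build to which the reads were aligned. The guide is shown with the 3 bases that follow it in the primers for the donor's outer ends and with those that follow it in the primer for the altered homology arm. Capitals mark the protospacer adjacent motif (PAM) that Cas9 needs, and the altered arm differs by G22A, counted from 1 at the guide's 5′ end.
Guide with intact PAM: atcttcaggctgtatgttcaTGG
Same run in the altered arm: atcttcaggctgtatgttcaTAG

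Of 24358 genes in the table, 14014 had at least 0.1 FPKM (fragments per kilobase of gene length, scaled to the fragments mapped in the library) in 3 or more of the 6 libraries and were tested. FPKM summed to between 370121 and 390320 per library, and 15339 to 15755 genes were above 0. Total depth is unknown, but the steps of the low values put the relative depth of the knock-in libraries at 0.727 to 1 and that of the WT libraries at 0.566 to 0.633 of knock-in line 1, so the WT libraries were the shallower. Pearson's r between libraries on log2(FPKM + 1), across genes, was 0.982 to 0.989 within the knock-in lines, 0.976 to 0.978 within WT and 0.947 to 0.972 between the groups. The 13 protein genes of the mitochondrial genome took 9.71% to 11.5% of summed FPKM in the knock-in lines and 13.9% to 16.4% in WT. The median log2 fold change of all genes tested was -0.0014.

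NANOG itself was checked before any other gene. Its levels, 52.03, 101 and 70.4 FPKM, belong to the knock-in lines numbered 1, 2 and 3, and 9.71, 16.4 and 27.6 FPKM to WT libraries 1, 2 and 3, and all later values are given in this order. Every knock-in value lay above every WT value, with the widest gap in line 2 (log2 fold change 2.06 ± 0.37 SE, adjusted p = 0.025). The lines were sorted for tdTomato, which is made from the NANOG allele. The NANOG difference is therefore not independent of how the group was made. The margin was thin: the call was lost without any of knock-in line 1, 2 or 3 or WT library 1 or 2, with adjusted p up to 0.0794. The table holds 1 identifier named NANOG, and it does not show how reads from the 2 loci were shared, nor whether reads of the edited and unedited alleles were counted alike.

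In all, 225 genes were called higher in the knock-in lines, which is 1.61% of the genes tested, and 99 were called lower, which is 0.706%. Calls, 2.31% in either direction, required both a log2 fold change beyond 1 in size and an adjusted p no larger than 0.05. By the adjusted p alone, 684 genes were higher and 328 lower (2.34%). The groups did not overlap for any called gene, beside a background in which all knock-in values lay above all WT values for 19% of genes tested and below them for 16.7%. An exact permutation test of 3 libraries against 3 cannot go below p = 0.1, so single genes rest on the limma fit. The genes called higher had a median of 15.4 FPKM in knock-in and 3.999 FPKM in WT, and those called lower had a median of 2.29 FPKM in knock-in and 8.18 FPKM in WT. Changes of 4-fold or more on this scale, a log2 fold change of at least 2, numbered 60 among the genes called higher and 10 among those called lower.

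**Figure D1:**
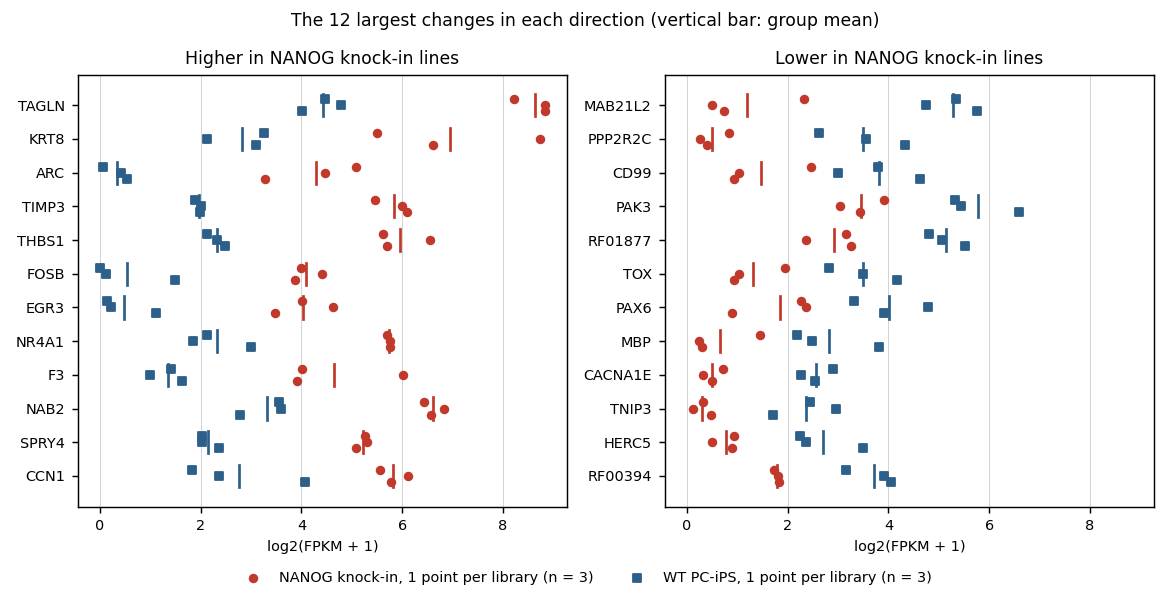
Level of the 12 genes with the largest changes in each direction, as log2(FPKM + 1) on the horizontal axis, with 1 point per library and a vertical bar at each group mean (n = 3 per group). The groups do not overlap for any of the 24 genes, and KRT8 and F3 spread widely among the knock-in lines, with line 2 highest.

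The list with the most members called higher was that of the immediate-early genes, which cells switch on within minutes of growth factor, stress or adhesion signals, without new protein synthesis. Of 53 tested members, 27 were called higher (50.9%, beside 1.61% of all genes) and none lower. In all comparisons of libraries 40 lay above WT (75.5%, beside 19% of all genes). The median log2 fold change was 1.41, against -0.0014 for all genes. This list and the others below were compiled with these data already known, so their direction is not independent evidence. ARC, a synaptic and growth-factor-induced gene, was at 8.74, 21.2 and 32.9 FPKM in the knock-in lines and at 0.454, 0.3303 and 0.0381 FPKM in WT (log2 fold change 3.95 ± 0.42, adjusted p = 0.00563). FOSB, a subunit of the AP-1 transcription factor, was at 13.6, 20.3 and 14.9 FPKM against 1.79, 0.0857 and 0 FPKM (log2 fold change 3.56 ± 0.39, adjusted p = 0.00625). ARC was below 0.5 FPKM in each WT library, and FOSB was listed at 0 in WT library 3. EGR3, a zinc-finger factor of the same early wave, measured 10.1, 23.9 and 15.1 FPKM against 1.16, 0.163 and 0.0966 FPKM (log2 fold change 3.55 ± 0.36, adjusted p = 0.00481). The orphan nuclear receptor NR4A1 was almost the same in the 3 knock-in lines, 53.3, 53.2 and 50.996 FPKM, and far lower in WT, 6.96, 2.59 and 3.39 FPKM (log2 fold change 3.42 ± 0.27, adjusted p = 0.00198).

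Other members of the list called higher were NAB2, SPRY4 and CCN1. NAB2, a co-repressor of EGR factors, measured 93.7, 114 and 85.6 FPKM in the knock-in lines and 5.91, 11.13 and 10.7 FPKM in WT (log2 fold change 3.30 ± 0.23, adjusted p = 0.00129). SPRY4, an inhibitor of receptor tyrosine kinase signalling, gave 33.1, 38.4 and 37.3 FPKM against 4.14, 3.06 and 3.09 FPKM (log2 fold change 3.08 ± 0.14, adjusted p = 0.000314). SPRY4 varied little within either group, and the lowest knock-in value of NAB2 was several times the highest WT value. CCN1, a matricellular protein and a target of both SRF and YAP, was at 53.6, 68.6 and 45.9 FPKM against 15.8, 4.16 and 2.54 FPKM, and WT library 1 stood well above the other WT libraries (log2 fold change 3.06 ± 0.52, adjusted p = 0.0219). WT library 1 was also the highest WT library for FOSB, EGR3 and NR4A1. With 1 library left out, 16 to 27 members of the list were called, fewest without knock-in line 2 (16) and, next, without WT library 2 (17). ARC, FOSB, EGR3, NR4A1, NAB2 and SPRY4 kept their calls with each library left out, whereas CCN1 lost it without knock-in line 1, knock-in line 2 or WT library 2, with adjusted p up to 0.076.

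The actin cytoskeleton and smooth muscle contractile genes were read next. Of 49 identifiers tested, 23 were called higher (46.9%, beside 1.61% of all genes) and none lower. In every pair of libraries 44 lay above WT (89.8%, beside 19% of all genes) and 1 lay below (2.04%, beside 16.7%). The median log2 fold change was 0.96. TAGLN, the actin-bundling protein transgelin of smooth muscle, had the largest fold change of any gene with a symbol at a pseudocount of 1, at 457, 453 and 299 FPKM against 15.2, 26.6 and 21.04 FPKM (log2 fold change 4.21 ± 0.23, adjusted p = 0.000664). At a pseudocount of 0.1 ARC had a larger log2 fold change than TAGLN, which was at 4.27. The contractile regulator CNN1, or calponin, measured 10.9, 14.5 and 9.15 FPKM against 0.873, 0.877 and 0.7601 FPKM (log2 fold change 2.75 ± 0.18, adjusted p = 0.00129). The groups were far apart for both genes, and CNN1 was below 1 FPKM in each WT library. Smooth muscle actin, ACTA2, was at 17.5, 12.2 and 11.4 FPKM against 1.73, 1.25 and 1.17 FPKM (log2 fold change 2.61 ± 0.20, adjusted p = 0.00159). The cardiac actin gene ACTC1 was at 44.9, 46.6 and 48.7 FPKM against 8.61, 6.48 and 10.002 FPKM (log2 fold change 2.37 ± 0.15, adjusted p = 0.00115). Actin genes are alike in sequence, and how the counting shared reads among them is not given in the sources used here. MYL9, the regulatory myosin light chain, was at 57.98, 62.9 and 52.4 FPKM against 9.87, 13.1 and 14.6 FPKM (log2 fold change 2.13 ± 0.15, adjusted p = 0.00153).

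SRF, the serum response factor that binds the promoters of many early and contractile genes, is a member of both lists and was singled out after its values were seen. The knock-in lines held 103, 96.5 and 122 FPKM and WT 23.7, 22.6 and 24.6 FPKM, a separation much wider than the spread in either group (log2 fold change 2.13 ± 0.11, adjusted p = 0.0006). The widely expressed cytoplasmic actin ACTG1, also chosen after its values were seen, reached 1895, 2309 and 2393 FPKM against 1242, 819 and 971 FPKM (log2 fold change 1.13 ± 0.18, adjusted p = 0.0184). TAGLN, CNN1, ACTA2, ACTC1, MYL9 and SRF stayed called with each library left out, and 16 to 24 members of the list were called higher in those fits. A count of 1 called lower came up without WT library 3 and with a pseudocount of 0.1 or 0.01. ACTG1 lost its call without knock-in line 2 or WT library 2, with adjusted p up to 0.0688.

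Pericyte and fibroblast markers were read beside these lists, since both cell types hold contractile and matrix RNA. Of 10 pericyte markers tested, CD248 and PDGFRB were called higher (20%, beside 1.61% of all genes). The summed level of the list was 53.02 to 65.2 FPKM in the knock-in lines and 30.2 to 33.9 FPKM in WT. CD248, or endosialin, was at 15.98, 11.07 and 18.4 FPKM against 1.72, 0.945 and 1.49 FPKM (log2 fold change 2.75 ± 0.22, adjusted p = 0.00205), and PDGFRB, the receptor for PDGF-B, at 8.24, 11.4 and 8.19 FPKM against 1.99, 1.75 and 3.23 FPKM (log2 fold change 1.64 ± 0.21, adjusted p = 0.0116). The best expressed pericyte markers, NOTCH3 and MCAM, overlapped between groups, at 12.4, 14.1 and 18.5 FPKM against 11.08, 12.7 and 16.7 FPKM for NOTCH3 and 11.4, 9.59 and 11.5 FPKM against 12.5, 11.8 and 8.93 FPKM for MCAM. Among 13 fibroblast and feeder markers, TWIST2, DCN and TWIST1 were called higher (23.1%, beside 1.61% of all genes). DCN is also counted with the extracellular matrix genes called higher. In every pair of libraries 9 lay above WT (69.2%, beside 19% of all genes) and 1 below (7.69%, beside 16.7%). The median log2 fold change was 0.81. The summed level was 481 to 553 FPKM in the knock-in lines and 256 to 311 FPKM in WT, most of it VIM. The marker below WT was the collagen COL1A1, at 0.739, 0.782 and 0.345 FPKM against 1.09, 1.46 and 0.838 FPKM, and FAP was listed at 0 in all 6 libraries. In bulk RNA, more cells of a type and more RNA per cell cannot be told apart, and the part of these cells in the results was not tested. The calls of TWIST2, DCN and TWIST1 did not all hold with a library left out: 0 to 5 markers of this list were called, 0 without knock-in line 2. CD248 and PDGFRB were called in each of those fits.

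**Figure D2:**
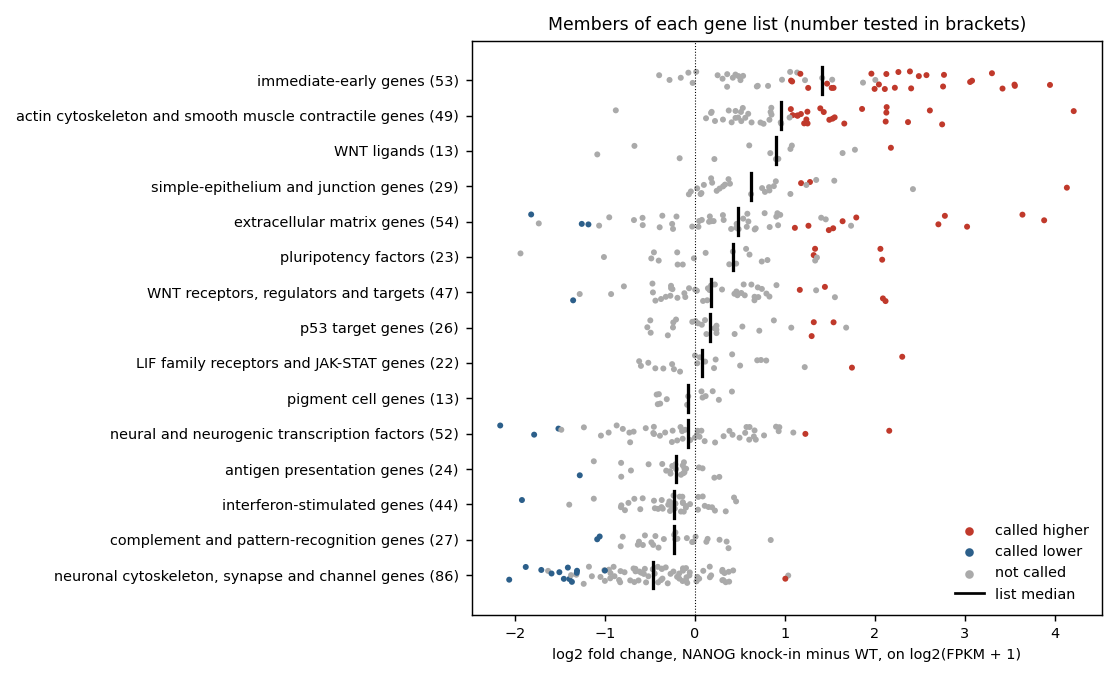
Log2 fold change of each tested member of the 15 gene lists, knock-in minus WT, with a black bar at the list median and the number tested in brackets. Immediate-early and contractile genes sit mostly to the right, with 27 and 23 members called higher, and neuronal genes mostly to the left, with 12 called lower.

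Extracellular matrix genes were called in both directions, though more of them higher. Of 54 tested, 11 were called higher (20.4%, beside 1.61% of all genes) and 3 lower (5.56%, beside 0.706%). In every pair of libraries 28 lay above WT (51.9%, beside 19% of all genes) and 7 below (13%, beside 16.7%). The median log2 fold change was 0.47. TIMP3, an inhibitor of matrix metalloproteinases, was at 66.9, 62.5 and 43.05 FPKM against 2.98, 3.02 and 2.71 FPKM (log2 fold change 3.88 ± 0.18, adjusted p = 0.000314), and its WT values agreed closely. THBS1, the matricellular protein thrombospondin 1, was at 50.9, 93.1 and 47.9 FPKM against 4.57, 4.04 and 3.39 FPKM (log2 fold change 3.64 ± 0.25, adjusted p = 0.00129). The cartilage collagen COL2A1 was at 48.4, 55.02 and 19.04 FPKM against 2.37, 3.58 and 5.67 FPKM, with line 3 the lowest of the knock-in lines (log2 fold change 3.02 ± 0.41, adjusted p = 0.0127). The same order held for COL18A1, a basement membrane collagen, at 90.4, 94.03 and 52.3 FPKM against 4.63, 11.01 and 20.2 FPKM, and for the adhesion-modulating TNC, at 33.1, 49.4 and 19.6 FPKM against 2.54, 3.03 and 7.96 FPKM, so that for all 3 genes line 3 lay nearest to WT and WT library 3 nearest to the knock-in lines. On the lower side, COL11A2, another fibrillar collagen, was at 0.938, 0.481 and 1.98 FPKM against 10.9, 5.72 and 3.74 FPKM (log2 fold change -1.82 ± 0.38, adjusted p = 0.035). NCAN, a proteoglycan of brain matrix, was at 5.47, 3.803 and 8.21 FPKM against 17.7, 16.7 and 10.8 FPKM (log2 fold change -1.26 ± 0.27, adjusted p = 0.0388), and SPON2, a secreted matrix protein, at 0.168, 0.0759 and 0.132 FPKM against 2.48, 1.61 and 0.846 FPKM (log2 fold change -1.19 ± 0.22, adjusted p = 0.0254). COL18A1 lost its call without knock-in line 1, knock-in line 2 or WT library 2, and TNC without any of these or WT library 1, with adjusted p up to 0.0764 and 0.0656. With 1 library left out, 4 to 14 members were called higher, 4 without knock-in line 2, 5 without knock-in line 1 or WT library 2 and 6 without WT library 1, and 0 to 4 were called lower, 0 without knock-in line 1, knock-in line 2, WT library 1 or WT library 2. With no filter on low values 7 were called higher and 0 lower, and with the library number as a block 6 and 1.

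At a pseudocount of 1, the largest fall was that of MAB21L2, a gene of eye and neural development. The knock-in lines held 0.664, 0.419 and 3.98 FPKM, highest in line 3, and WT 53.02, 25.8 and 39.6 FPKM (log2 fold change -4.10 ± 0.48, adjusted p = 0.00853). PPP2R2C, a regulatory subunit of protein phosphatase 2A that is mostly found in brain, was at 0.318, 0.204 and 0.774 FPKM against 18.98, 10.7 and 5.16 FPKM (log2 fold change -3.00 ± 0.40, adjusted p = 0.0119). Both were called with each library left out, and with a pseudocount of 0.01 C3, described below, had a larger fall than either. PAK3, a p21-activated kinase of neurons, was at 9.82, 7.21 and 14.01 FPKM against 94.9, 42.6 and 38.9 FPKM (log2 fold change -2.32 ± 0.36, adjusted p = 0.0176). The cell surface glycoprotein CD99 was at 0.907, 1.06 and 4.53 FPKM against 23.8, 7.01 and 12.8 FPKM (log2 fold change -2.33 ± 0.51, adjusted p = 0.0402). For each of these 4 genes line 3 was the knock-in line closest to WT. TOX, a DNA-binding factor known from T cell and neural development, was at 0.922, 1.04 and 2.84 FPKM against 17.1, 10.2 and 6.08 FPKM (log2 fold change -2.19 ± 0.39, adjusted p = 0.0247). MBP, the myelin basic protein gene, was at 0.237, 0.176 and 1.75 FPKM against 13.1, 4.58 and 3.53 FPKM (log2 fold change -2.16 ± 0.48, adjusted p = 0.0411). PAK3, CD99, TOX and MBP each lost their call with some library left out, with adjusted p up to 0.0625, 0.131, 0.0911 and 0.138.

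Genes of the neuronal cytoskeleton, synapse and ion channels were read among the lists drawn up for the lower side. Of 86 identifiers tested, 12 were called lower (14%, beside 0.706% of all genes) and 1 higher (1.16%, beside 1.61%). In every pair of libraries 46 lay below WT (53.5%, beside 16.7% of all genes) and 7 above (8.14%, beside 19%). The median log2 fold change was -0.47. CACNA1E, a voltage-gated calcium channel, was at 0.405, 0.243 and 0.639 FPKM against 4.84, 3.79 and 6.51 FPKM (log2 fold change -2.07 ± 0.20, adjusted p = 0.00406). CPLX2, a complexin that regulates synaptic vesicle fusion, was the best expressed of those called lower, at 17.3, 10.03 and 24.9 FPKM against 76.2, 68.8 and 47.6 FPKM (log2 fold change -1.88 ± 0.31, adjusted p = 0.0214). Neither gene overlapped between groups, and knock-in line 2 had the lowest level of both. STMN4, a microtubule-destabilising stathmin, was at 1.16, 0.284 and 1.14 FPKM against 6.33, 5.57 and 3.31 FPKM (log2 fold change -1.71 ± 0.28, adjusted p = 0.0202). The axonal adhesion protein CNTN2 was at 2.63, 2.58 and 6.18 FPKM against 21.3, 10.7 and 8.94 FPKM (log2 fold change -1.60 ± 0.37, adjusted p = 0.0468). GRIK5, a kainate receptor subunit, was at 4.96, 2.52 and 2.303 FPKM against 12.9, 6.68 and 13.9 FPKM (log2 fold change -1.51 ± 0.32, adjusted p = 0.037). The exception was NSG1, a trafficking protein of neuronal endosomes, which was at 33.7, 37.9 and 34.9 FPKM against 14.3, 13.4 and 26.3 FPKM and only just met the fold threshold (log2 fold change 1.00 ± 0.24, adjusted p = 0.0475).

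Of the other members called lower, 3 were named after their values were seen. The microtubule protein of migrating neurons, DCX, was at 4.58, 4.04 and 8.57 FPKM against 15.96, 18.6 and 15.8 FPKM (log2 fold change -1.46 ± 0.24, adjusted p = 0.0214). SNAP25, which drives synaptic vesicle fusion, was at 2.603, 1.86 and 3.64 FPKM against 10.2, 8.03 and 6.25 FPKM (log2 fold change -1.32 ± 0.23, adjusted p = 0.0247), and the neurofilament-like protein INA at 4.82, 3.15 and 7.51 FPKM against 15.5, 15.5 and 10.6 FPKM (log2 fold change -1.31 ± 0.28, adjusted p = 0.0362). In each of the 3 genes, line 3 was the highest knock-in line and lay below the lowest WT library. The summed level of the whole list was 483 to 717 FPKM in the knock-in lines and 876 to 1130 FPKM in WT. The number called lower depended on single libraries: it was 2 without knock-in line 1 and without knock-in line 2, 4 without WT library 1, 3 without WT library 2, 13 without knock-in line 3 and 17 without WT library 3. It was also 5 with no filter on low values, 6 with the library number as a block and 19 with a pseudocount of 0.1. DCX, SNAP25 and INA were each called without knock-in line 3 and without WT library 3 only, with adjusted p up to 0.0811, 0.0921 and 0.116. NSG1 was called only without WT library 3. CACNA1E kept its call in all of these fits, whereas CPLX2, STMN4, CNTN2 and GRIK5 did not, with adjusted p up to 0.0697, 0.0611, 0.147 and 0.118.

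The neural and neurogenic transcription factors did not move as a block. Of 52 tested, 3 were called lower (5.77%, beside 0.706% of all genes) and 2 higher (3.85%, beside 1.61%). The median log2 fold change was -0.08, which turned positive under 5 of the alternatives tried, such as 0.049 with a filter of 1 FPKM. The number called lower was 1 with no filter on low values, with the library number as a block and without any of knock-in lines 1 and 2 and WT libraries 1 and 2, and 5 without WT library 3, while 1 to 3 were called higher with a library left out. PAX6, the master regulator of eye and dorsal forebrain, was at 0.858, 4.12 and 3.84 FPKM against 14.1, 26.8 and 8.96 FPKM (log2 fold change -2.17 ± 0.48, adjusted p = 0.0403). LMO3, a cofactor of neural transcription factors, was at 2.44, 2.04 and 3.08 FPKM against 9.68, 9.49 and 7.98 FPKM, with tight replicates (log2 fold change -1.52 ± 0.16, adjusted p = 0.00621). EN1, a midbrain and limb patterning factor, and SOX11, a factor of immature neurons and other embryonic tissues, were called in the opposite direction. EN1 was at 5.46, 7.38 and 4.16 FPKM against 0.267, 0 and 1.48 FPKM (log2 fold change 2.16 ± 0.34, adjusted p = 0.0193), and SOX11 at 61.7, 65.8 and 65.02 FPKM against 23.9, 23.3 and 34.7 FPKM (log2 fold change 1.23 ± 0.16, adjusted p = 0.0105). LMO3 and SOX11 were called with each library left out, whereas PAX6 and EN1 were not, with adjusted p up to 0.104 and 0.0656.

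Complement genes included C3, which was close to 0 in the knock-in lines. C3, the central protein of the complement cascade, was listed at 0 in knock-in line 1 and was at 0.0181 and 0.00759 FPKM in lines 2 and 3, while WT held 1.16, 1.08 and 1.07 FPKM. It passed the filter on low values through the WT libraries alone, which favours a difference, and with no filter other than 1 value above 0 the log2 fold change of C3 was -1.06 with an adjusted p of 0.00274. On the log2(FPKM + 1) scale this difference is understated, since the knock-in level is close to 0. CFB, the factor B protease of the alternative pathway that binds C3b, was at 0.321, 0.359 and 0.1904 FPKM against 2.12, 1.3005 and 1.86 FPKM (log2 fold change -1.09 ± 0.14, adjusted p = 0.0116). These were the 2 called members of 27 complement and pattern-recognition genes tested (7.41%, beside 0.706% of all genes). In every pair of libraries 11 lay below WT (40.7%, beside 16.7% of all genes) and 2 above (7.41%, beside 19%). The median log2 fold change of the list was -0.23. The most abundant members, the chaperone-like CLU and the C1 inhibitor SERPING1, did not pass. CLU was at 33.01, 24.4 and 27.9 FPKM against 64.6, 55.1 and 36.8 FPKM (adjusted p = 0.058), and SERPING1 at 18.9, 20.4 and 24.6 FPKM against 37.3, 23.8 and 29.2 FPKM (adjusted p = 0.14). Without any single WT library C3 no longer met the filter on low values and had no test. CFB fell just short of the fold threshold without WT library 1, at a log2 fold change of -0.994.

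Interferon and antigen presentation genes had 1 call each, both lower. Of 44 interferon-stimulated genes tested, 1 was called lower (2.27%, beside 0.706% of all genes) and none higher. In every pair of libraries 18 lay below WT (40.9%, beside 16.7% of all genes) and 6 above (13.6%, beside 19%). The median log2 fold change was -0.23. The called gene was HERC5, the ligase that attaches the ubiquitin-like ISG15, at 0.864, 0.419 and 0.919 FPKM against 10.3, 4.15 and 3.77 FPKM (log2 fold change -1.93 ± 0.33, adjusted p = 0.0226). It was not called without knock-in line 1 or knock-in line 2, with adjusted p up to 0.0794. The number of list members called lower was 4 with a pseudocount of 0.1 or 0.01, 3 on TPM, 3 without WT library 3 and 0 without knock-in line 1 or 2. Its relative HERC6, chosen after its values were seen, passed the adjusted p but not the fold threshold. HERC6 was at 0.301, 0.149 and 0.295 FPKM against 1.203, 0.971 and 0.817 FPKM (log2 fold change -0.68 ± 0.12, adjusted p = 0.0222, up to 0.0882 with a library left out). The list's best expressed members did not separate downwards: IFIT5 overlapped at 33.99, 33.1 and 31.7 FPKM against 28.9, 43.9 and 37.6 FPKM, and UBE2L6 lay above WT at 30.01, 26.4 and 28.1 FPKM against 15.9, 24.8 and 20.99 FPKM (adjusted p = 0.12).

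Of 24 antigen presentation genes tested, B2M, the light chain of MHC class I, was the single call, at 1.83, 1.84 and 3.42 FPKM against 9.39, 7.898 and 4.53 FPKM (log2 fold change -1.28 ± 0.28, adjusted p = 0.0402). RefSeq lists 2 neighbouring copies of B2M on chromosome 1, so reads may be split between them and the level is uncertain. The call was lost without knock-in line 1 or 2 or WT library 1 or 2, with adjusted p up to 0.138. It was also lost with no filter on low values and with the library number as a block. The immunoproteasome genes PSMB9 and PSME1, chosen after their values were seen, were at 0.547, 0.847 and 1.01 FPKM against 2.32, 1.82 and 1.699 FPKM for PSMB9 (log2 fold change -0.71 ± 0.15, adjusted p = 0.0362) and 22.03, 19.1 and 31.8 FPKM against 41.4, 44.9 and 42.1 FPKM for PSME1 (log2 fold change -0.82 ± 0.18, adjusted p = 0.0384), with adjusted p up to 0.138 and 0.134 when a library was left out. PSMB9 and PSME1 thus passed the adjusted p but not the fold threshold. PSMB8, another immunoproteasome gene, passed neither, at 1.42, 0.644 and 1.47 FPKM against 3.78, 2.85 and 1.94 FPKM (log2 fold change -0.82 ± 0.23, adjusted p = 0.0749). In this list 9 genes lay below WT in every pair of libraries (37.5%, beside 16.7% of all genes) and 1 above (4.17%, beside 19%). The single call is 4.17% of those tested, beside 0.706% of all genes. The most abundant members, the chaperones PDIA3 and CALR, overlapped between groups, at 497, 489.9 and 414 FPKM against 431, 498 and 602 FPKM for PDIA3 and 286, 292 and 268 FPKM against 192, 253 and 389 FPKM for CALR.

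TNIP3, an inhibitor of NF-κB signalling, was also among the 12 genes with the largest falls. It was at 0.3996, 0.0931 and 0.2403 FPKM against 2.28, 6.79 and 4.43 FPKM, where WT library 1 was the lowest of the WT libraries (log2 fold change -2.06 ± 0.30, adjusted p = 0.015, and up to 0.054 without knock-in line 2).

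Small RNA genes made up 31 of the 99 genes called lower and none of the 225 called higher. These are short genes that the annotation names by their Rfam family, a catalogue of structured RNAs such as small nucleolar and spliceosomal RNAs. The table holds 2230 of them, 396 passed the filter and 7.83% of those were called lower, against 0.49% of the genes with other symbols. All knock-in values lay below all WT values for 104 of the 396 and above for 13, beside 16.7% and 19% of all genes tested. Their median log2 fold change was -0.20. RF01877 was at 8.59, 4.15 and 7.897 FPKM against 45.1, 32.6 and 27.1 FPKM (log2 fold change -2.21 ± 0.27, adjusted p = 0.00998). RF00394 was at 2.57, 2.52 and 2.33 FPKM against 15.6, 14.1 and 7.92 FPKM (log2 fold change -1.91 ± 0.24, adjusted p = 0.00998). Both were called in each fit with a library left out, while the number of such genes called lower ran from 10 without knock-in line 1 to 30 without WT library 3, with 17 and 20 without WT libraries 1 and 2 and 19 and 18 without knock-in lines 2 and 3. With a pseudocount of 0.1, 42 were called lower and 4 higher, with 0.01 41 and 4, on TPM 35 and 1, and with no filter on low values 17 and 0. Libraries were made with oligo(dT), which selects polyadenylated RNA, and FPKM divides by a very short length here, so a few fragments weigh heavily. The WT libraries, in which these genes read higher, were also the shallower ones, and the part of library preparation in this difference was not tested.

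**Figure D3:**
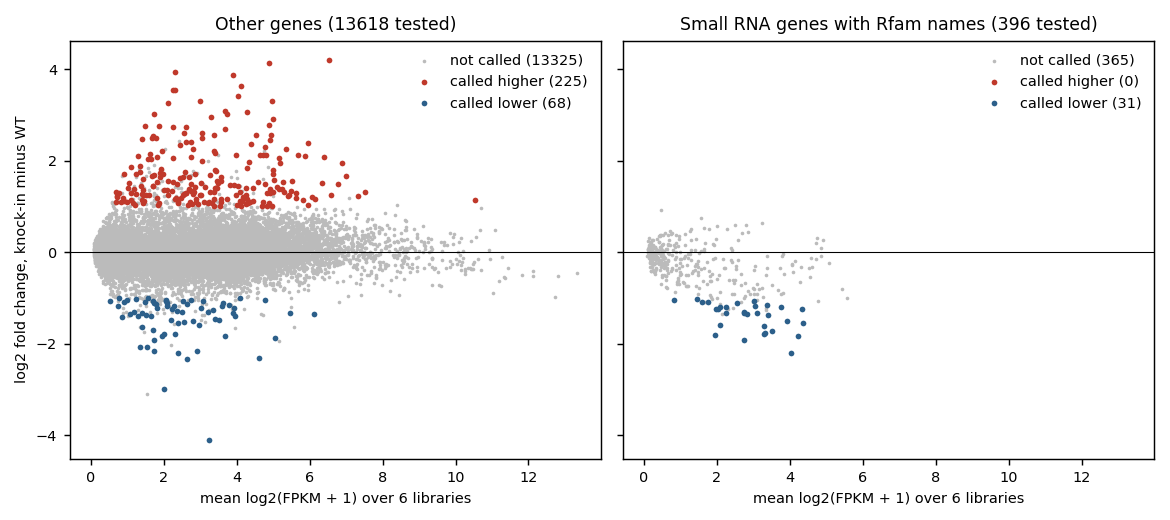
Log2 fold change, knock-in minus WT, against mean level as log2(FPKM + 1) over the 6 libraries, with small RNA genes named by Rfam family in the right panel and all other genes in the left. Of the small RNA genes, 31 are called lower and 0 higher with the settings drawn, while other genes have 225 called higher and 68 called lower.

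Pluripotency genes were checked against the label of the cells. Of 41 symbols in the list, 34 were in the table, 23 passed the filter, and 4 were called higher (LIN28A, NANOG, TRIM71 and KLF2) and none lower, with a median log2 fold change of 0.42. The 4 are 17.4% of those tested, beside 1.61% of all genes. They include NANOG, whose reporter the lines were sorted on, so its call is not independent of how the group was made. No identifier in the table was paired with POU5F1, and DNMT3L, GDF3, KLF17 and ZFP42 were listed at 0 in all 6 libraries. SOX2 was at 63.96, 67.4 and 67.7 FPKM against 45.2, 39.1 and 45.7 FPKM, so the groups did not overlap, and it passed the adjusted p but not the fold threshold (log2 fold change 0.60 ± 0.10, adjusted p = 0.0201, up to 0.081 with a library left out). SALL4, a partner of OCT4, overlapped between groups, at 13.99, 12.5 and 14.6 FPKM against 12.7, 13.7 and 15.2 FPKM (log2 fold change -0.013 ± 0.12). ESRRB, an orphan receptor of naive pluripotency, overlapped, with line 2 alone well above the rest, at 1.92, 6.596 and 2.08 FPKM against 1.94, 0.948 and 1.24 FPKM (adjusted p = 0.198). LIN28A, the RNA-binding repressor of let-7 maturation, was at 163, 285 and 108 FPKM against 32.8, 47.6 and 40.1 FPKM (log2 fold change 2.08 ± 0.33, adjusted p = 0.0184). TRIM71, a let-7 target that represses differentiation transcripts, was at 8.91, 11.4 and 10.3 FPKM against 3.37, 3.598 and 3.33 FPKM, with little spread (log2 fold change 1.33 ± 0.14, adjusted p = 0.00562). KLF2, a factor of naive pluripotency, was at 0.807, 2.23 and 1.94 FPKM against 0, 0.0542 and 0.04603 FPKM, low in both groups. It passed the filter on low values through the knock-in lines alone, which favours a difference, and with no filter other than 1 value above 0 the log2 fold change of KLF2 had an adjusted p of 0.0425. TRIM71 kept its call with each library left out. LIN28A lost it without knock-in line 1 or WT library 1, with adjusted p up to 0.0616. KLF2 lost it without WT library 1 or 2, with adjusted p up to 0.0626, and had no test without any one of the knock-in lines, since it then missed the filter.

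Other members of the pluripotency list, chosen after their values were seen, were not called. The naive factor KLF4 overlapped at 68.9, 77.6 and 91.4 FPKM against 83.7, 53.7 and 84.8 FPKM, as did the epiblast and forebrain factor OTX2 at 57.4, 80.96 and 67.99 FPKM against 68.7, 74.6 and 93.8 FPKM. ALPL, the alkaline phosphatase used to stain pluripotent colonies, was at 40.4, 10.2 and 12.5 FPKM against 121, 69.3 and 40.3 FPKM (log2 fold change -1.94 ± 0.55, adjusted p = 0.0736). Knock-in line 1 and WT library 3 met at about the same ALPL level, so the groups overlapped. ALPL was called lower without knock-in line 1 (adjusted p = 0.048) and with the library number as a block. SALL1, a zinc-finger factor, was at 6.77, 5.17 and 8.22 FPKM against 19.7, 20.04 and 7.36 FPKM (log2 fold change -1.01 ± 0.36, adjusted p = 0.121) and was called lower without WT library 3, which was the lowest WT library for this gene. ZSCAN10, also chosen after its values were seen, went the other way, at 5.77, 5.1 and 1.72 FPKM against 0.768, 0.68 and 1.26 FPKM. It was not called (log2 fold change 1.35 ± 0.34, adjusted p = 0.0554), except in 1 of the fits with a library left out. PC-iPS cells were made with reprogramming factors, and whether reads of those transgenes add to SOX2 or KLF4 was not tested.

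Epithelial and trophoblast genes were read next. Of 29 simple-epithelium and junction genes tested, KRT8, MARVELD1 and BCAM were called higher (10.3%, beside 1.61% of all genes) and none lower. The median log2 fold change was 0.62, and 14 members lay above WT in every pair of libraries (48.3%, beside 19% of all genes). No member was called with no filter on low values or without knock-in line 1, WT library 1 or WT library 2, and 1 was called without knock-in line 2 and with the library number as a block. KRT8, the keratin of simple epithelia, was at 96.7, 428 and 44.3 FPKM against 7.51, 3.34 and 8.496 FPKM, and line 2 held several times the level of the other lines (log2 fold change 4.13 ± 0.75, adjusted p = 0.0251). Its call was lost without knock-in line 1, WT library 1 or WT library 2, with adjusted p up to 0.0764. MARVELD1, a membrane protein of junctions, was at 8.78, 7.58 and 14.8 FPKM against 4.01, 2.15 and 4.88 FPKM (adjusted p = 0.0483), and the laminin receptor BCAM at 10.8, 6.52 and 5.77 FPKM against 2.87, 2.16 and 3.23 FPKM (adjusted p = 0.033), both close to the threshold, with adjusted p up to 0.124 and 0.0921 when a library was left out. Of 6 trophoblast markers tested, TFAP2A and TEAD4 were called higher (33.3%, beside 1.61% of all genes), and CDX2 was listed at 0 in all 6 libraries. TFAP2A, an AP-2 factor, was at 12.7, 25.8 and 17.9 FPKM against 4.72, 5.43 and 6.38 FPKM (log2 fold change 1.56 ± 0.24, adjusted p = 0.0186, up to 0.0596 without WT library 1 or 2). TEAD4, a partner of YAP, was at 12.7, 15.1 and 10.1 FPKM against 5.43, 5.07 and 5.79 FPKM (log2 fold change 1.07 ± 0.16, adjusted p = 0.0173, up to 0.076 without knock-in line 1 or 2). The trophoblast list summed to 34.3 to 65.2 FPKM in the knock-in lines and 14.3 to 15.7 FPKM in WT.

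Markers of endoderm, mesoderm and of blood and endothelial cells had no call among 3, 4 and 6 members tested, beside 2.31% of all genes. At that share lists this small would mostly hold no call. In every pair of libraries 2 endoderm (66.7%), 2 mesoderm (50%) and 2 blood and endothelial markers (33.3%) lay above WT, beside 19% of all genes. Below WT lay 1 mesoderm marker (25%, beside 16.7%) and no marker of the other lists. GATA4, SOX17, TTR and MSGN1 were listed at 0 in all 6 libraries. GATA6, a primitive endoderm factor, was at 18.8, 12.5 and 15.7 FPKM against 8.98, 6.65 and 6.32 FPKM and was just under the fold threshold (log2 fold change 1.00 ± 0.19, adjusted p = 0.0289), which it passed without WT library 1. The chemokine receptor CXCR4 was at 31.1, 25.02 and 47.5 FPKM against 17.998, 21.3 and 23.7 FPKM (adjusted p = 0.116). Mesoderm markers stayed low, TBX6 at 3.12, 3.57 and 3.32 FPKM against 2.57, 2.25 and 2.82 FPKM and MESP1 at 0.304, 0.209 and 0.648 FPKM against 0.448, 0.27996 and 0.577 FPKM. The best expressed blood and endothelial markers were near 1 FPKM or below, CD34 at 0.542, 0.766 and 0.544 FPKM against 0.472, 0.278 and 0.507 FPKM and CD68 at 1.13, 1.19 and 0.953 FPKM against 0.664, 1.05 and 1.19 FPKM.

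WNT genes were read because the medium holds CHIR99021, an activator of the β-catenin branch of this pathway, for both groups. Of 13 WNT ligands tested, WNT3 alone was called, at 26.6, 28.8 and 13.1 FPKM against 2.73, 3.398 and 6.64 FPKM (log2 fold change 2.18 ± 0.35, adjusted p = 0.0205), and the list median was 0.90. This 1 call is 7.69% of those tested, beside 1.61% of all genes. WNT3A overlapped between groups, at 15.4, 45.8 and 31.6 FPKM against 6.22, 3.42 and 18.5 FPKM (adjusted p = 0.0965). It was called in 1 of the fits with a library left out. Without WT library 3, 3 ligands were called higher. The WNT3 call was lost without knock-in line 1 or 2 or WT library 1 or 2, with adjusted p up to 0.0764, and with the library number as a block. Of 47 receptors, regulators and targets tested, 4 were called higher (8.51%, beside 1.61% of all genes) and 1 lower (2.13%, beside 0.706%). The median log2 fold change was 0.18. With no filter on low values, 1 was called higher and 0 lower. The counts were the same without knock-in line 1, knock-in line 2, WT library 1 or WT library 2. They were 2 and 1 without knock-in line 3 and 6 and 3 without WT library 3. NKD1, a feedback inhibitor that binds Dishevelled, was at 25.4, 34.97 and 36.02 FPKM against 3.67, 5.098 and 14.1 FPKM (adjusted p = 0.0296), and the agonist RSPO1 at 4.46, 14.3 and 3.604 FPKM against 0.462, 0.255 and 1.72 FPKM (adjusted p = 0.0452). RNF43, a ligase that removes Frizzled receptors, was at 3.76, 4.34 and 2.06 FPKM against 0.303, 0.273 and 1.33 FPKM (adjusted p = 0.0346), and the cyclin gene CCND1 at 106, 112 and 101 FPKM against 44.5, 46.5 and 49.7 FPKM, with tight replicates (log2 fold change 1.16 ± 0.092, adjusted p = 0.00198). Against these, LGR4, the receptor for R-spondins, was at 44.6, 28.1 and 62.9 FPKM against 122, 137 and 82.5 FPKM (log2 fold change -1.36 ± 0.30, adjusted p = 0.0402). Only CCND1 of these 5 genes was called with each library left out; for NKD1, RSPO1, RNF43 and LGR4 adjusted p reached 0.0965, 0.121, 0.115 and 0.118.

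LIF acts through JAK and STAT3 and is supplied in the medium. Of 22 genes of LIF-family receptors and JAK-STAT signalling tested, the kinases PIM1 and PIM3, known STAT targets that promote survival, were called higher and none lower. The 2 are 9.09% of those tested, beside 1.61% of all genes. PIM1 was at 49.4, 88.7 and 49.2 FPKM against 16.4, 7.87 and 11.2 FPKM (log2 fold change 2.30 ± 0.30, adjusted p = 0.0116), and PIM3 at 7.98, 13.4 and 9.38 FPKM against 2.38, 1.97 and 2.56 FPKM (log2 fold change 1.74 ± 0.20, adjusted p = 0.00768). Both were called with each library left out, while the median of the list, 0.08, was close to that of all genes. CNTFR, the receptor for ciliary neurotrophic factor and the list's best expressed member, was at 98.3, 93.3 and 94.5 FPKM against 53.05, 48.01 and 72.6 FPKM (log2 fold change 0.73 ± 0.15, adjusted p = 0.0351). Of 26 p53 target genes tested, 3 were called higher (11.5%, beside 1.61% of all genes) and none lower, with a median of 0.17. Among them, BTG2 is also counted with the immediate-early genes called higher. The antiproliferative BTG2 was at 27.7, 47.2 and 48.6 FPKM against 16.4, 13.7 and 9.95 FPKM (adjusted p = 0.0205), the BH3-only death gene BBC3 at 8.64, 11.7 and 10.6 FPKM against 2.64, 4.55 and 3.53 FPKM (adjusted p = 0.0159), and the AKT inhibitor PHLDA3 at 49.7, 43.6 and 38.6 FPKM against 14.8, 21.97 and 15.7 FPKM (adjusted p = 0.0115). PHLDA3 stayed called with each library left out, while BTG2 and BBC3 reached an adjusted p of 0.0705 and 0.0646. None of 13 pigment cell genes tested was called, beside 2.31% of all genes. In every pair of libraries 2 lay above WT (15.4%, beside 19% of all genes) and 3 below (23.1%, beside 16.7%). KIT and SLC24A5, the best expressed, overlapped at 3.21, 4.86 and 3.12 FPKM against 4.77, 2.78 and 2.09 FPKM and 3.03, 3.05 and 3.72 FPKM against 5.12, 5.57 and 3.66 FPKM.

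F3, the initiator of blood coagulation known as tissue factor, was the one gene among the 12 largest rises that none of the lists held. It was at 14.1, 63.7 and 15.2 FPKM against 2.11, 0.994 and 1.65 FPKM, again with line 2 far above lines 1 and 3 (log2 fold change 3.30 ± 0.53, adjusted p = 0.0199, up to 0.0562 with a WT library left out). Other genes outside the lists were chosen after their values were seen. In the Notch pathway, the target genes HES1, HEY1 and HES4 and the glycosyltransferase LFNG were called higher while the ligand DLL1 and the related glycosyltransferase MFNG were called lower. HES1 was at 10.2, 15.97 and 18.8 FPKM against 1.94, 1.79 and 2.04 FPKM (log2 fold change 2.41 ± 0.22, adjusted p = 0.00333), and DLL1 at 5.62, 7.46 and 12.8 FPKM against 21.7, 18.04 and 19.1 FPKM (log2 fold change -1.16 ± 0.25, adjusted p = 0.0397). HES1, HEY1 and HES4 were called with each library left out, but DLL1 was called only without knock-in line 3, MFNG only without WT library 3 and LFNG in those 2 fits only, with adjusted p up to 0.126, 0.113 and 0.076.

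TXNIP, an inhibitor of glucose uptake and of thioredoxin, and its relative ARRDC4 were called lower. TXNIP was at 1.49, 1.71 and 2.14 FPKM against 6.43, 7.17 and 6.75 FPKM, with a gap far wider than the spread of either group (log2 fold change -1.49 ± 0.15, adjusted p = 0.00441). ARRDC4 was at 3.68, 4.504 and 4.802 FPKM against 17.04, 11.2 and 7.43 FPKM (log2 fold change -1.21 ± 0.27, adjusted p = 0.0402), and of the pair TXNIP alone was called with each library left out, ARRDC4 reaching 0.138. YTHDF3, a reader of methylated adenosine in mRNA, was nearly constant over the knock-in lines, at 17.6, 17.9 and 18.3 FPKM against 32.2, 43.1 and 40.2 FPKM (log2 fold change -1.05 ± 0.13, adjusted p = 0.00919). The deadenylase gene CNOT6L was at 3.61, 3.34 and 4.17 FPKM against 8.004, 6.88 and 11.98 FPKM (log2 fold change -1.05 ± 0.21, adjusted p = 0.0314), and adjusted p rose to 0.11 with a library left out. YTHDF3 fell just short of the fold threshold without WT library 2.

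Sterol genes split. CH25H, which makes 25-hydroxycholesterol, was at 18.2, 34.8 and 28.5 FPKM against 1.81, 1.82 and 4.45 FPKM (log2 fold change 2.96 ± 0.32, adjusted p = 0.00625). INSIG1, which holds the sterol sensor in the endoplasmic reticulum, was at 61.5, 63.01 and 50.7 FPKM against 21.9, 10.5 and 17.5 FPKM (log2 fold change 1.801 ± 0.24, adjusted p = 0.012), and the sterol carrier STARD4 at 13.1, 15.3 and 15.5 FPKM against 5.998, 5.35 and 6.57 FPKM (log2 fold change 1.17 ± 0.13, adjusted p = 0.00758). All 3 were called with each library left out. The synthesis genes HMGCS1 and SQLE overlapped between groups, HMGCS1 at 104, 113 and 88.4 FPKM against 159, 78.1 and 102 FPKM and SQLE at 52.3, 48.5 and 41.7 FPKM against 45.2, 31.6 and 38.7 FPKM.

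Genes next to the edited loci were read because their position does not depend on the measured values. Within 500 kb of NANOG, 4 named genes lie on chromosome 1 and 18 on chromosome 5 in RefSeq. Of these, 4 and 13 were paired with an identifier and 3 and 8 were tested. None was called, beside 2.31% of all genes tested called in either direction. At that share a set this small would mostly hold no call. THSD4, whose annotated span overlaps the chromosome 1 locus, was at 8.59, 9.199 and 3.98 FPKM against 8.74, 5.41 and 6.35 FPKM (log2 fold change 0.029 ± 0.30). RIMKLB, an amino acid ligase on chromosome 5, passed the adjusted p but not the fold threshold, at 6.64, 6.16 and 6.63 FPKM against 11.7, 11.6 and 9.61 FPKM (log2 fold change -0.67 ± 0.13, adjusted p = 0.0306). PHC1, a Polycomb gene of the same stretch, overlapped at 23.6, 18.9 and 24.1 FPKM against 23.4, 22.1 and 22.7 FPKM. The pluripotency-linked GDF3, between these genes and NANOG, was listed at 0 in all 6 libraries. The other tested neighbours, LRRC49, MYO9A, A2M, M6PR, A2ML1, MFAP5, FOXJ2 and NECAP1, had log2 fold changes from -0.64 to 0.17. RIMKLB, MYO9A, A2M and A2ML1, which is 4 of the 11 tested, lay below WT in every pair of libraries, beside 16.7% of all genes tested, and none lay above.

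**Figure D4:**
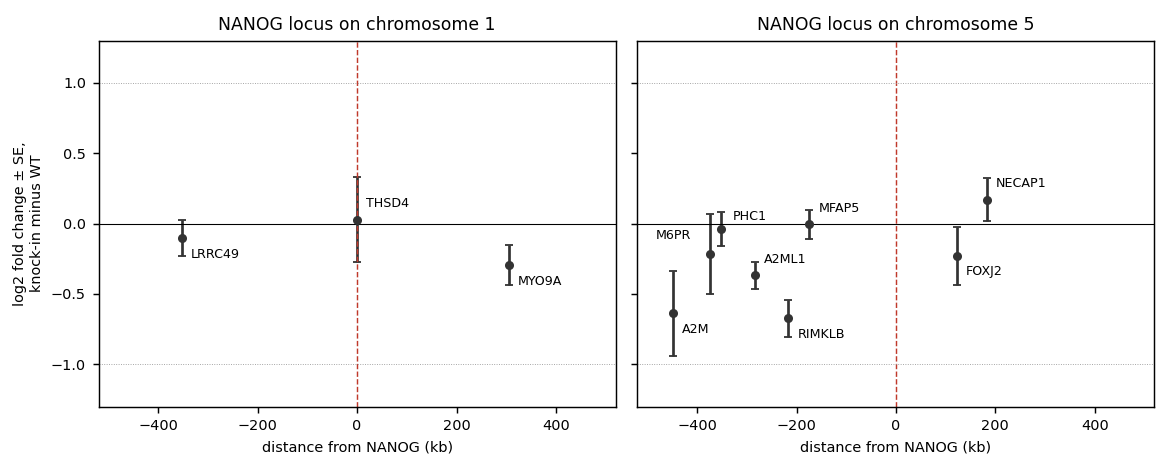
Log2 fold change ± SE of the tested genes within 500 kb of each NANOG locus, against distance from NANOG in kb, with dotted lines at the fold threshold of 1 and -1. None of the 11 genes reaches the threshold, and RIMKLB on chromosome 5 lies lowest at -0.67. Over all genes tested, 2.31% were called in either direction.

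Calls were spread over the genome. Of the genes tested, 11524 could be placed by symbol on 19 chromosomes, 196 of them called higher and 58 lower, with median log2 fold changes from -0.07 on chromosome 16 to 0.11 on chromosome 2. No gene was called lower on chromosomes 3, 10, 12 and 16. Called higher there were 17 of 861 (1.97%), 6 of 252 (2.38%), 11 of 717 (1.53%) and 1 of 215 (0.465%). Chromosome 8 held 3 called higher (0.746%) and 8 lower (1.99%) of 402. Among all tested genes with a symbol other than an Rfam name, 1.69% were called higher and 0.49% lower. These counts are a description, since few genes lie behind each.

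The series also holds 3 libraries of the knock-in cells in Activin A and 3 in SB 431542, an inhibitor of the Activin and TGF-β type I receptors, grown in T1, which is LCDMV without LIF. Their values come from a table deposited separately, so levels are set side by side with no test, for genes chosen after their values were seen. NR4A1 was at 68.4, 64.9 and 67.8 FPKM in Activin A and 58.5, 50.5 and 53.02 FPKM in SB 431542, and TAGLN at 402, 393 and 282 FPKM and 413, 410.03 and 296 FPKM, all far above WT. C3 was at 0, 0.00675 and 0 FPKM in Activin A and at 0.00701, 0 and 0 FPKM in SB 431542. HERC5 was at 0.851, 0.396 and 1.71 FPKM and 0.943, 0.346 and 0.955 FPKM, and CPLX2 at 14.6, 9.21 and 27.5 FPKM and 9.23, 6.02 and 16.98 FPKM. Other called genes reached into the WT span in SB 431542. YTHDF3 was at 17.6, 16.5 and 17.9 FPKM in Activin A and 39.2, 19.4 and 21.6 FPKM in SB 431542, RSPO1 at 5.81, 16.4 and 5.59 FPKM and 1.38, 13.04 and 1.62 FPKM, and DCN at 14.4, 25.2 and 11.5 FPKM and 2.94, 12.6 and 6.76 FPKM, so that SB 431542 library 1 lay within the WT values of all 3 genes. NANOG and TXNIP did not overlap between the treatments: NANOG was at 109, 195 and 157 FPKM in Activin A and 11.8, 27.2 and 11.8 FPKM in SB 431542, the latter within the span of the WT libraries, and TXNIP was at 0.626, 0.7302 and 0.882 FPKM and 2.74, 2.95 and 2.52 FPKM. LIN28A had the opposite order to NANOG, at 90.02, 200.04 and 67.5 FPKM in Activin A and 327, 498 and 192 FPKM in SB 431542.

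**Figure D5:**
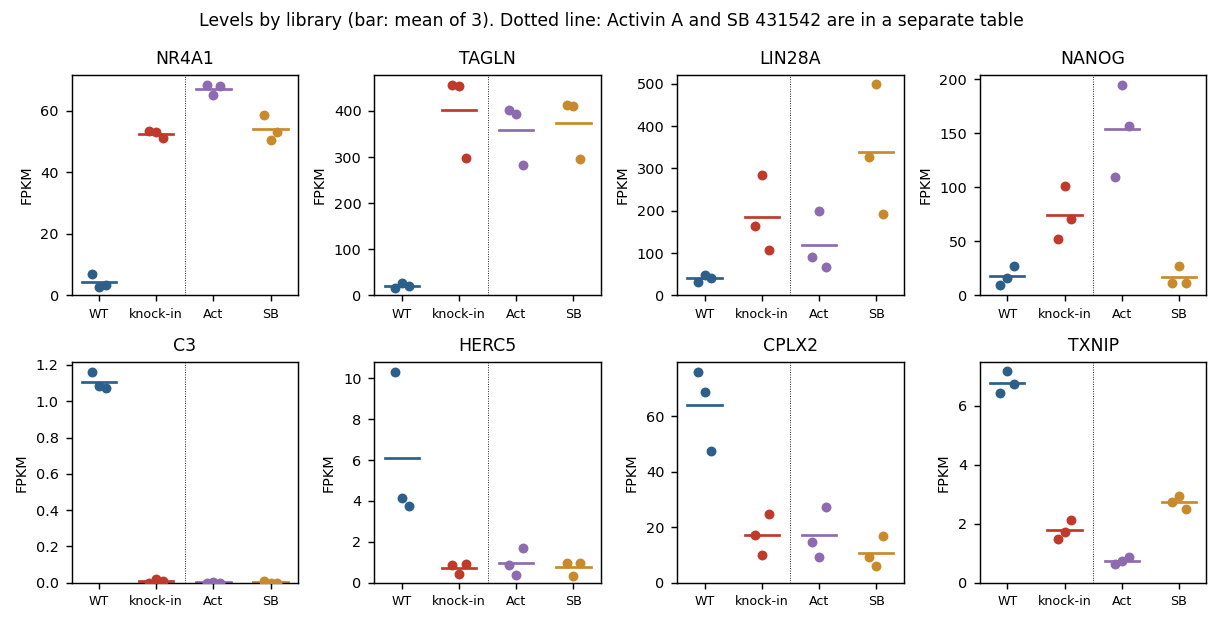
FPKM of 8 genes in each of the 12 libraries of the series, with a bar at the mean of each group of 3 and a dotted line before the Activin A (Act) and SB 431542 (SB) libraries of the other table. Among the genes drawn, NANOG in SB 431542 lies within the WT span, at 11.8, 27.2 and 11.8 FPKM. NR4A1, TAGLN, LIN28A, C3, HERC5, CPLX2 and TXNIP do not overlap WT in either treatment.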

How the data were processed

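Reads were trimmed (Trim Galore) and aligned to Ssc11.1 by the authors, and the submitters' processing notes name HISAT2 2.0.4, StringTie 1.3.3, featureCounts 1.6.4, DESeq2 and bcl2fastq 2.17.1.14. The values used here are the FPKM the authors deposited for each library. Read counts were not used here, so the depth is unknown, and relative depth was read from the steps of values under 0.3 FPKM. Symbols came from the file for 20081 of 24358 identifiers and from a RefSeq-based table for 870, and 3407 had none. Coordinates are those of RefSeq for Sscrofa11.1, matched by symbol for 14697 genes, of which 11539 were tested. The guide was read from the study's primer list.

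Genes with at least 0.1 FPKM in 3 of the 6 libraries were tested with limma 3.58.1 (R 4.3.3, with a variance trend) on log2(FPKM + 1), with Benjamini-Hochberg adjustment over all 14014 genes. With this pseudocount, differences between low values come out smaller than they are. Calls required a log2 fold change beyond 1 in size together with an adjusted p no larger than 0.05. The script was tested on simulated data. Tables were handled with data.table, version 1.17.8, and pandas 2.3.3 and drawn with matplotlib 3.10.9.

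The comparison and the gene lists were chosen with earlier results of these data known. Genes were named by rule: NANOG, the 12 largest called changes with a symbol and no overlap in each direction, up to 5 called members of each list per direction, the best expressed 2 members of a list with fewer than 3 calls, the core pluripotency factors, and the genes within 500 kb of NANOG. Genes chosen after their values were seen are said to be so. Some genes that the rule names are not reported here. Alternatives were the pseudocount, the filter, TPM, median-ratio and quantile scaling, no trend, the library number as a block, each library left out and the adjusted p alone.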

Additional observations from a re-analysis of the deposited data

How the results depend on the processing

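The counts of 225 genes called higher in knock-in and 99 genes called lower in knock-in moved with the settings. They were 346 and 192 with a pseudocount of 0.1, 320 and 181 with 0.01, 157 and 42 with no filter on low values, and 684 and 328 by the adjusted p alone. With 1 library left out they ranged from 117 to 303 higher and from 28 to 143 lower, and were 117 and 28 without knock-in line 1, 119 and 31 without knock-in line 2 and 135 and 42 without WT library 1. The median log2 fold change of all genes stayed between -0.03 with quantile scaling and 0.02 on TPM. Same-numbered libraries did not deviate together (r across genes -0.018, 0.009 and 0.094), so the numbers were not taken as pairs, and with the number as a replicate block 172 genes were called higher and 60 lower, of which 164 and 52 were among those called without the block.

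Among single genes, 19 values changed sign, all of genes that were not called. With TPM, SALL4 was at 0.016 and MCAM at 0.005, and with quantile scaling CALR was at -0.002 and KLF4 at -0.011. With single libraries left out, the lowest and highest values were -0.002 and 0.447 for KIT, -0.010 and 0.296 for NOTCH3, -0.021 and 0.177 for CD68, -0.152 and 0.355 for CALR, -0.070 and 0.052 for SALL4, -0.159 and 0.063 for MCAM, -0.188 and 0.036 for MESP1, -0.234 and 0.006 for PDIA3, -0.096 and 0.229 for KLF4, and -0.324 and 0.182 for HMGCS1. The cause was not tested. Of the 95 called genes followed, 37 were called in each of the 6 fits with a library left out. The unknown depth limits what low values can show.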

Other observations

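Some called genes outside the lists were picked after their values were seen. PDGFB, the ligand of PDGFRB, measured 20.9, 6.84 and 4.14 FPKM (knock-in) against 0.226, 0.2097 and 0.0995 FPKM (WT) (log2 fold change 3.03 ± 0.47, adjusted p = 0.0182 by limma, up to 0.0571 with a library left out). FGF19, an endocrine fibroblast growth factor, was at 94.7, 113 and 60.1 FPKM against 11.9, 7.46 and 13.6 FPKM (log2 fold change 2.90 ± 0.28, adjusted p = 0.00406) and was called with each library left out. The neighbouring membrane protein genes TMEM176A and TMEM176B were both called lower. TMEM176B was at 0.561, 0.343 and 0.479 FPKM against 2.21, 3.66 and 2.11 FPKM (log2 fold change -1.302 ± 0.18, adjusted p = 0.0132), and TMEM176A at 0.637, 0.275 and 0.651 FPKM against 1.39, 4.68 and 3.57 FPKM (adjusted p = 0.0402), with adjusted p up to 0.0532 and 0.13 when a library was left out.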
